A study of Mus with 10 samples.

Results

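The interferon regulatory factor (IRF) genes *Irf1*, *Irf2*, *Irf3*, *Irf4*, *Irf5*, *Irf7*, *Irf8* and *Irf9* were examined in liver type 1 innate lymphoid cells (ILC1s) that have or lack the activating receptor NKp46. These 8 genes were taken by symbol from the 24564 genes of the count table, and all 8 passed the filter on low counts, among 11463 genes tested.

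ILC1s are tissue-resident lymphocytes that make IFN-γ rapidly. Cells were sorted from the livers of male or female C57BL/6 mice, 6 to 8 weeks old, and each genotype was represented by 5 RNA-seq libraries. In Ncr1gfp/gfp mice *gfp* replaces *Ncr1*, the gene of NKp46, while Ncr1+/+ mice carry the intact gene. Both groups were gated as Lin-NK1.1+CD49b-CD49a+ cells, with an NKp46 antibody as the further marker in Ncr1+/+ ILC1s and GFP in Ncr1gfp/gfp ILC1s, so that genotype and gating marker cannot be told apart. The study speaks of RNA pools, and neither the labels nor the methods say how many mice a library holds, so that the p-values below measure the spread between libraries.

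IRF proteins are transcription factors that share an amino-terminal DNA-binding domain with a row of conserved tryptophans, and they bind interferon-stimulated response elements and related sites. IRF3, IRF5 and IRF7 are switched on by phosphorylation downstream of nucleic acid sensors, IRF9 acts below the type I interferon receptor, and IRF1 carries much of the response to IFN-γ. IRF2 occupies the same elements as IRF1 and often opposes it, whereas IRF4 and IRF8 act with partners such as PU.1 and BATF in lymphoid and myeloid differentiation.

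Libraries held between 15796253 and 22623133 counts, and 3 counts corresponded to 0.132 to 0.190 CPM (counts scaled to library size by TMM normalization). *Ncr1* was between 141 and 356 CPM in the Ncr1gfp/gfp libraries and between 1913 and 2144 CPM in the Ncr1+/+ libraries. The 7 ILC1 markers found in the table summed to between 4462 and 4723 CPM in every library, but 4 were lower and 3 higher in Ncr1gfp/gfp ILC1s. Only *Itga1*, the gene of CD49a, passed adjustment, at 971 CPM in Ncr1gfp/gfp against 779 CPM (adjusted p = 0.000481, edgeR's quasi-likelihood test). NK cell markers summed to between 128 and 184 CPM in Ncr1gfp/gfp and between 109 and 143 CPM in Ncr1+/+ libraries. The 4 that were tested were all higher in Ncr1gfp/gfp ILC1s, and none passed adjustment. Of these, *Eomes* averaged 10.2 CPM in Ncr1gfp/gfp and 7.10 CPM in Ncr1+/+ ILC1s. T cell markers summed to between 632 and 835 CPM in Ncr1gfp/gfp and between 461 and 579 CPM in Ncr1+/+ ILC1s, most of it *Cd3g*, without overlap between the genotypes. *Cd3e* (21.1 against 5.72 CPM, adjusted p = 0.00235) and *Cd8a* (19.4 against 6.69 CPM, adjusted p = 0.0248) were called higher in Ncr1gfp/gfp ILC1s by edgeR's quasi-likelihood test, and the part of such cells in the IRF values was not tested. Hepatocyte markers were high in Ncr1gfp/gfp replicate 3, at 52.3 CPM, and in Ncr1+/+ replicate 1, at 30.1 CPM, against at most 5.15 CPM in any other library. Here and below, a gene was called where the Benjamini-Hochberg adjusted p-value of edgeR's quasi-likelihood test was under 0.05 and the fold change was above 1.5 or below 0.7.

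Most IRF genes were expressed at substantial levels in liver ILC1s, and the order of these levels was examined first. Read counts were divided by the exon length of each gene (reads per kilobase of exon, scaled to library size, RPKM), since counts alone favour long transcripts. *Irf1* was the highest, at 128.8 to 156 RPKM in Ncr1+/+ and 132 to 149 RPKM in Ncr1gfp/gfp libraries, above 97.7% of the tested genes. *Irf7* and *Irf2* followed, at 49.5 to 65.7 and 47.2 to 57.8 RPKM over the 10 libraries. *Irf3*, *Irf8* and *Irf9* averaged 45.9, 40.5 and 33.4 RPKM, and *Irf5* was lower, at 15.4 RPKM.

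*Irf4*, an IRF gene that is induced by antigen receptor signals in T and B cells, was the lowest. It had 0.428 RPKM over all libraries, which lay above 4.89% of the tested genes, and 19 to 63 counts per library. *Irf1* made up 36.9% ± 0.978 of the summed IRF RPKM in Ncr1gfp/gfp and 36.5% ± 1.53 in Ncr1+/+ ILC1s, and *Irf4* 0.103% ± 0.0248 and 0.116% ± 0.0347 (n = 5 each, SD).

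Of the 7 pairs of neighbours in this order, 6 differed beyond the spread between libraries. The exon length of a gene is the same divisor in every library, so an error in it would not show in this spread. *Irf1* exceeded *Irf7* in 10 of 10 libraries, by 1.36 on the log2 RPKM scale (two-sided exact sign-flip test within libraries, adjusted p = 0.00456 over 7 pairs). *Irf7* and *Irf2* were not separated, with a mean log2 difference of 0.020 ± 0.185 (SD, n = 10) and *Irf7* the higher gene in 4 of 10 libraries (exact sign-flip test, adjusted p = 0.771). In the Ncr1+/+ libraries alone *Irf2* stood ahead of *Irf7*, and the rest of the order was as over all libraries. The pairs *Irf2* and *Irf3*, *Irf3* and *Irf8*, and *Irf8* and *Irf9* kept their order in 9 of 10 libraries each, with log2 differences of 0.26, 0.18 and 0.28 (exact sign-flip test, adjusted p = 0.00456 for each). The genotypes are pooled in these values, and the difference of *Irf3* over *Irf8* was 0.31 ± 0.134 in Ncr1gfp/gfp and 0.061 ± 0.058 in Ncr1+/+ libraries, and that of *Irf8* over *Irf9* 0.15 ± 0.144 and 0.41 ± 0.181 (n = 5 each, SD).

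**Figure D1:**
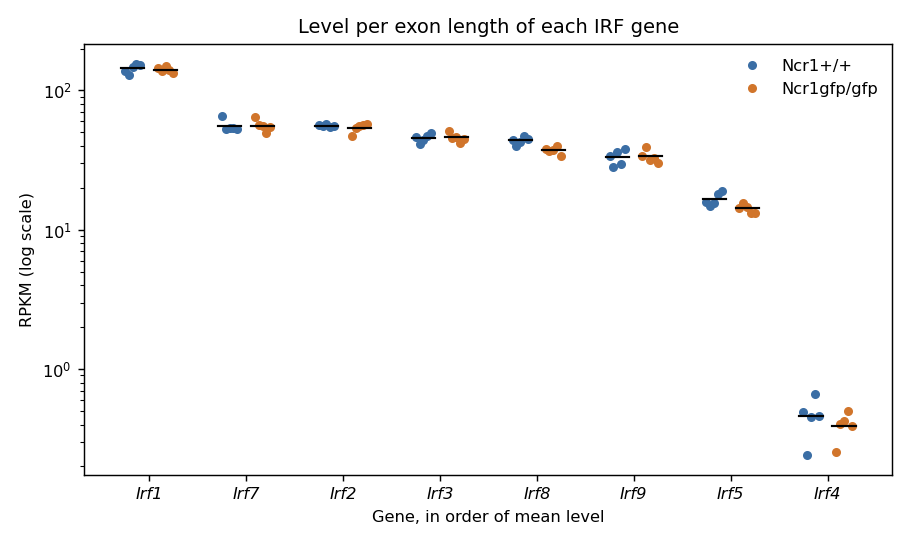
RPKM (reads per kilobase of exon, scaled to library size, log axis) of each IRF gene, in order of mean level, with 1 point per library, blue for Ncr1+/+ and orange for Ncr1gfp/gfp ILC1s, and a bar at each group mean. *Irf1* stands highest (128.8 to 156 RPKM), the means of 6 genes lie between 15.4 and 55.8 RPKM, and *Irf4* lies below 1 RPKM.

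The comparison of the genotypes asks whether the transcripts of this family differ when NKp46 is missing. In edgeR's quasi-likelihood test 0 of 8 IRF genes were called, where 0.733% of all tested genes were (0.532% lower and 0.201% higher). By the adjusted p-value alone 0 of 8 passed as well, where 1.35% of all tested genes did (0.785% lower and 0.567% higher). DESeq2, the likelihood ratio test of edgeR and limma-voom with sample quality weights called none either. In each of these 3 alternatives *Irf8* passed an adjusted p-value of 0.05 without passing the fold limit. At an unadjusted p-value under 0.05 there were 2 of 8 genes, *Irf8* and *Irf5*, both lower in Ncr1gfp/gfp ILC1s, where 11.4% of all tested genes passed (5.91% lower and 5.46% higher). The median log2 fold change of the 8 genes was -0.04, against 0.0027 over all tested genes. The summed CPM of the family was 1071 ± 31.8 in Ncr1gfp/gfp and 1114 ± 61.3 in Ncr1+/+ ILC1s (n = 5 each, SD).

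*Irf8* encodes a factor known for directing monocyte and dendritic cell development, which is also made by NK cells and B cells. It lies on the plus strand of chromosome 8, where the table lists it at bases 123260258 to 123280592 without naming a genome build. Its CPM was 151.6, 137, 147.5, 162 and 154 in Ncr1+/+ replicates 1 to 5. In Ncr1gfp/gfp replicates 1 to 5 it was 130.4, 127, 128, 136 and 117. Every Ncr1gfp/gfp library was below every Ncr1+/+ library, although the highest Ncr1gfp/gfp value, in replicate 4, lay next to the lowest Ncr1+/+ value, in replicate 2.

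The mean of *Irf8* in Ncr1gfp/gfp ILC1s was 15.1% below that of Ncr1+/+ ILC1s, with 128 ± 6.92 against 150.4 ± 9.28 CPM (n = 5 each, SD). The log2 fold change was -0.24 (standard error 0.06, 95% interval -0.37 to -0.10), with a p-value of 0.00136 before and 0.0735 after adjustment over all tested genes in edgeR's quasi-likelihood test. *Irf8* was the only member without overlap between the genotypes, where 3.11% of all tested genes had none (1.82% lower and 1.28% higher). Without overlap, the two-sided exact permutation test over libraries can only give p = 0.00794, the lowest value possible with 5 against 5. That value restates the lack of overlap, and it is for this gene alone, without adjustment. The adjusted p-value of *Irf8* was 0.0168 with DESeq2, 0.0315 with limma-voom and 0.0457 with the likelihood ratio test of edgeR. In the quasi-likelihood test it was 0.0419 without Ncr1+/+ replicate 2. Omission of any of the other 9 libraries gave between 0.0775 and 0.214. Within the family, which removes the scaling of libraries, *Irf8* took 9.29% to 10.6% of the summed RPKM in the Ncr1gfp/gfp libraries and 10.8% to 11.6% in the Ncr1+/+ libraries.

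Because *Irf8* and *Irf5* are also expressed in macrophages and dendritic cells, markers of these cells were read beside them. The 12 macrophage and monocyte markers summed to between 15.5 and 56.6 CPM in Ncr1gfp/gfp and between 28.6 and 86.0 CPM in Ncr1+/+ libraries, and the ranges overlapped (two-sided exact permutation test, p = 0.302). Of these markers, *Fcgr1* and *Marco* were below 1 CPM in every library. All 9 that were tested had a log2 fold change below 0, between -0.92 and -0.19, and none passed an adjusted p-value of 0.05 (edgeR's quasi-likelihood test).

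The dendritic cell list was dominated by *Itgax*, the gene of CD11c, at 1707 CPM in Ncr1gfp/gfp and 1401 CPM in Ncr1+/+ ILC1s. Its adjusted p-value was 0.000539 in edgeR's quasi-likelihood test. With *Itgax*, the 9 genes summed to between 1675 and 1791 CPM in Ncr1gfp/gfp and between 1359 and 1540 CPM in Ncr1+/+ libraries. This sum was thus higher in Ncr1gfp/gfp libraries (two-sided exact permutation test, p = 0.00794). It follows *Itgax*, which alone ranged from 1648 to 1762 CPM in Ncr1gfp/gfp and from 1325 to 1454 CPM in Ncr1+/+ libraries. The p-value of the sum therefore reads that gene and not dendritic cells, and which cells hold the *Itgax* transcripts was not tested. The other 8 genes of the list went the other way. They summed to between 17.6 and 45.6 CPM in Ncr1gfp/gfp and between 33.8 and 99.5 CPM in Ncr1+/+ libraries (two-sided exact permutation test, p = 0.0397, computed after the data were seen). Most of that smaller sum came from *Cd74* and from the MHC class II genes *H2-Aa* and *H2-Ab1*. Neither *Cd74* nor *H2-Aa* nor *H2-Ab1* passed adjustment (adjusted p = 0.0978, 0.188 and 0.276, edgeR's quasi-likelihood test). The defining genes *Xcr1*, *Clec9a* and *Flt3* were below 1 CPM in every library, and *Siglech* reached 1.14 CPM at most, while *Zbtb46*, another defining gene, was present in every library, at 2.68 to 4.45 CPM in Ncr1gfp/gfp and 3.48 to 6.26 CPM in Ncr1+/+ libraries. The part of such cells in the lower *Irf8* and *Irf5* values was not tested. In bulk libraries, fewer cells of a type and less RNA per cell cannot be told apart.

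*Irf5*, a factor of Toll-like receptor signalling in myeloid and B cells, showed a difference of similar size with more spread. Ncr1+/+ replicates 1 to 5 had 42.0, 39.1, 41.0, 48.1 and 50.1 CPM, and Ncr1gfp/gfp replicates 1 to 5 had 38.2, 41.0, 38.9, 35.2 and 34.9 CPM. Of the Ncr1gfp/gfp libraries, 4 were below every Ncr1+/+ library, and replicate 2 reached into their range. The mean was 37.6 ± 2.58 CPM in Ncr1gfp/gfp and 44.1 ± 4.76 CPM in Ncr1+/+ ILC1s (n = 5 each, SD). The log2 fold change was -0.23 (standard error 0.09, 95% interval -0.42 to -0.03, adjusted p = 0.330, edgeR's quasi-likelihood test). The two-sided exact permutation test gave p = 0.0159 for this gene alone. *Irf5* lies on chromosome 6 from 29476625 to 29491869 in the table and shares 1043 bases with *Tnpo3* on the opposite strand, which had 150.2 CPM in Ncr1gfp/gfp and 157 CPM in Ncr1+/+ ILC1s. The library kit does not mark strand, so reads on the shared bases cannot be assigned to either gene with certainty.

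**Figure D2:**
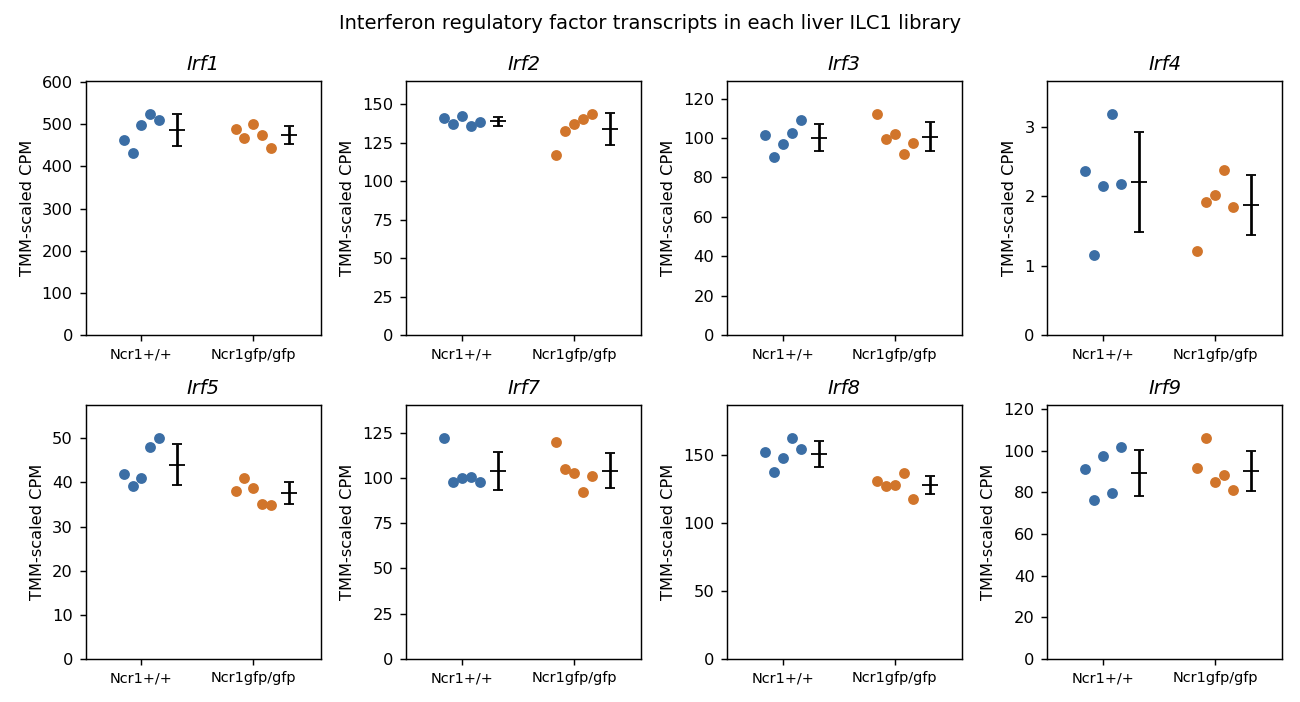
TMM-scaled CPM of the 8 IRF genes, with 1 point per library, blue for Ncr1+/+ and orange for Ncr1gfp/gfp ILC1s, and the mean ± SD of 5 libraries in black beside them; each panel starts at 0. *Irf8* is the only gene whose Ncr1gfp/gfp libraries (117 to 136 CPM) all lie below the Ncr1+/+ libraries (137 to 162 CPM).

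*Irf1* and *Irf2*, the activator and its competitor at shared elements, did not pass the test. *Irf1* had 462, 433, 499, 524 and 511 CPM in Ncr1+/+ replicates 1 to 5 and 489, 467, 501, 474 and 445 CPM in Ncr1gfp/gfp replicates 1 to 5. The Ncr1gfp/gfp values all lay inside the Ncr1+/+ range, and the log2 fold change was -0.03 (95% interval -0.15 to 0.08, adjusted p = 0.902, edgeR's quasi-likelihood test). This interval excludes the fold limits of 1.5 and 0.7 on either side.

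*Irf2* ranged from 117 to 144 CPM in Ncr1gfp/gfp and from 136 to 142 CPM in Ncr1+/+ ILC1s. Its lowest value was in Ncr1gfp/gfp replicate 1, and the log2 fold change was -0.05 (95% interval -0.18 to 0.08, adjusted p = 0.851, edgeR's quasi-likelihood test). The log2 ratio of *Irf1* to *Irf2* counts within a library, which does not depend on scaling, was 1.83 ± 0.16 in Ncr1gfp/gfp and 1.80 ± 0.12 in Ncr1+/+ ILC1s (n = 5 each, SD; two-sided exact permutation test, p = 0.802, adjusted p = 0.976 over 3 ratios).

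*Irf3* is constitutive in most cells, whereas *Irf7* is itself raised by type I interferon. Both lie on chromosome 7, as *Ncr1* does, and start 48.0 and 144 Mb from it in the coordinates of the table. *Irf3* ranged from 92.1 to 112 CPM in Ncr1gfp/gfp and from 90.4 to 109 CPM in Ncr1+/+ ILC1s, with a log2 fold change of 0.0083 (95% interval -0.14 to 0.16, adjusted p = 0.982, edgeR's quasi-likelihood test).

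*Irf7* had 122 CPM in Ncr1+/+ replicate 1 and 97.7 to 100.6 CPM in the other 4 Ncr1+/+ libraries. That replicate also held 30.1 CPM of hepatocyte markers, whose part in its *Irf7* level was not tested. In Ncr1gfp/gfp ILC1s *Irf7* ranged from 92.1 to 119.5 CPM. Its highest value there was in replicate 1, which held 2.98 CPM of hepatocyte markers. Ncr1gfp/gfp replicate 3, with 52.3 CPM of these markers, had 102.8 CPM of *Irf7*. The log2 fold change was 0.0058 (95% interval -0.16 to 0.17, adjusted p = 0.989, edgeR's quasi-likelihood test), and the sign turned for both *Irf3* and *Irf7* when single libraries were left out. The log2 ratio of *Irf7* to *Irf3* was 0.045 ± 0.039 in Ncr1gfp/gfp and 0.047 ± 0.156 in Ncr1+/+ ILC1s (n = 5 each, SD; two-sided exact permutation test, p = 0.976).

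*Irf9*, which acts in the response to type I interferon, varied more within each genotype than between them. It ranged from 80.9 to 106 CPM in Ncr1gfp/gfp and from 76.0 to 102 CPM in Ncr1+/+ ILC1s, with means of 90.3 ± 9.66 and 89.2 ± 11.1 CPM (n = 5 each, SD). Its log2 fold change was 0.02 (95% interval -0.17 to 0.21, adjusted p = 0.965, edgeR's quasi-likelihood test), and its sign also turned with single libraries left out.

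*Irf4* was the least precisely measured member. Ncr1+/+ replicates 1 to 5 held 42, 26, 43, 63 and 40 counts of it, Ncr1gfp/gfp replicates 1 to 5 held 19, 42, 38, 40 and 31, and the groups overlapped. The log2 fold change of -0.23 had a 95% interval from -1.09 to 0.63 (adjusted p = 0.907, edgeR's quasi-likelihood test), so that a change as large as either fold limit could be neither detected nor excluded. With single libraries left out, its log2 fold change ran from -0.40 without Ncr1+/+ replicate 2 to -0.059 without Ncr1+/+ replicate 4. The log2 ratio of *Irf8* to *Irf4*, members that share partners, was 6.12 ± 0.36 in Ncr1gfp/gfp and 6.17 ± 0.45 in Ncr1+/+ ILC1s (n = 5 each, SD; two-sided exact permutation test, p = 0.841, adjusted p = 0.976 over 3 ratios).

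**Figure D3:**
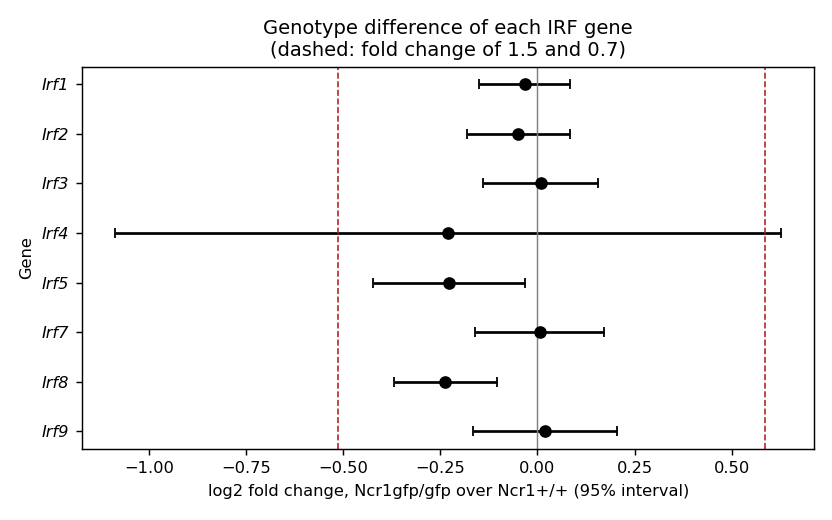
Log2 fold change of each IRF gene in Ncr1gfp/gfp over Ncr1+/+ ILC1s with its 95% interval from edgeR's quasi-likelihood fit; the solid line marks no difference and the dashed lines a fold change of 1.5 and 0.7. The interval of *Irf4* (-1.09 to 0.63) crosses both dashed lines, while those of the other 7 genes lie between them, and those of *Irf5* and *Irf8* lie below 0.

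Genes that act around the IRF proteins were read from the same fit, in 5 lists with 86 genes, of which 80 were tested. A single gene, *Irf2bp2*, had an adjusted p-value under 0.05, which is 1.25% of these genes against 1.35% of all tested genes, and none was called. *Irf2bp2* encodes a corepressor that was found as a partner of IRF2. It had 377, 349.8, 377, 346 and 349 CPM in Ncr1+/+ replicates 1 to 5 and 288, 306, 321, 307 and 325 CPM in Ncr1gfp/gfp replicates 1 to 5. All Ncr1gfp/gfp libraries were lower than all Ncr1+/+ libraries, and the mean was 14.0% lower. Of the 80 tested genes, only *Irf2bp2* and *Jak2* had no overlap between the genotypes, where 3.11% of all tested genes had none. The log2 fold change was -0.22 (adjusted p = 0.0377 by edgeR's quasi-likelihood test, standard error 0.05). Omission of single libraries raised its adjusted p-value above 0.05 in 8 of 10 cases, up to 0.114 without Ncr1+/+ replicate 3, and it was 0.110 without the 2 libraries with high hepatocyte markers.

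Among the other partners and cofactors, *Batf*, which pairs with IRF4 and IRF8 on DNA, was at 26.6 ± 4.50 CPM in Ncr1gfp/gfp and 33.0 ± 5.37 CPM in Ncr1+/+ ILC1s (n = 5 each, SD), with overlap (log2 fold change -0.31, adjusted p = 0.328, edgeR's quasi-likelihood test). Without both libraries high in hepatocyte markers its log2 fold change was -0.20. *Spi1*, the gene of PU.1, averaged 1.40 and 1.76 CPM. *Spib*, *Batf2* and *Batf3* did not pass the filter.

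Of the sensors, adaptors and kinases upstream of IRF3, IRF5 and IRF7, 16 of 18 were tested, 8 were higher and 8 lower, with a median log2 fold change of 0.0010. The smallest p-values were those of *Ddx58* and *Ifih1*, which encode the RNA sensors RIG-I and MDA5. *Ddx58* had 303 ± 7.81 against 279 ± 14.5 CPM and *Ifih1* 57.6 ± 11.3 against 48.2 ± 4.91 CPM in Ncr1gfp/gfp against Ncr1+/+ ILC1s (n = 5 each, SD). Without Ncr1gfp/gfp replicate 1, which had 77.7 CPM of *Ifih1* against 50.9 to 55.7 CPM in the other 4 Ncr1gfp/gfp libraries, the log2 fold change of this gene was 0.13. Neither gene passed the adjustment with all libraries (log2 fold changes 0.12 and 0.26, adjusted p = 0.348 and 0.353, edgeR's quasi-likelihood test).

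All 9 tested genes for interferon receptors, their JAK kinases and STAT partners had a log2 fold change below 0, where 49.3% of all tested genes did, with a median of -0.07, and none passed the test. *Jak2*, a kinase of the IFN-γ receptor, had the smallest p-value. Its Ncr1gfp/gfp libraries (457 to 495 CPM) did not overlap the Ncr1+/+ libraries (509 to 595 CPM), as was so for 3.11% of all tested genes. Its log2 fold change was -0.17 (adjusted p = 0.129, edgeR's quasi-likelihood test). *Ifngr1*, the ligand-binding chain of that receptor, ranged from 274 to 336 CPM in Ncr1gfp/gfp and from 335 to 389 CPM in Ncr1+/+ ILC1s (log2 fold change -0.16, adjusted p = 0.330 in the same edgeR test).

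Genes of the interferon responses, many of which IRF proteins regulate, lay on both sides of 0. Of 21 tested type I interferon response genes, 12 were higher and 9 lower, with a median log2 fold change of 0.05 and no adjusted p-value under 0.05. *Xaf1* and *Ifit1*, both interferon-induced, had the smallest p-values in this list (log2 fold changes 0.30 and 0.24, adjusted p = 0.347 and 0.389, edgeR's quasi-likelihood test). Of 27 IRF1 and IFN-γ response genes, all tested, 9 were higher and 18 lower, with a median of -0.03 and again no adjusted p-value under 0.05.

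In the last of these lists, *Iigp1*, an immunity-related GTPase that IFN-γ induces, had the smallest p-value. It was at 2.66 ± 0.823 CPM in Ncr1gfp/gfp and 6.43 ± 2.37 CPM in Ncr1+/+ ILC1s (n = 5 each, SD), and the ranges of 1.25 to 3.23 and 2.69 to 9.25 CPM overlapped. Its log2 fold change was -1.27 (adjusted p = 0.0634 by edgeR's quasi-likelihood test, standard error 0.33). It was called with DESeq2, with the likelihood ratio test, with no filter, with at least 10 counts in every library and without Ncr1+/+ replicate 2. The adjusted p-values there lay between 0.00919 and 0.0395. Omission of any of the other 9 libraries left that of *Iigp1* above 0.05, up to 0.165 (edgeR's quasi-likelihood test). It was 0.116 with limma-voom. In the quasi-likelihood test it was 0.1305 with the replicate number as a block and 0.179 without the 2 libraries with high hepatocyte markers. *Gbp8*, a guanylate-binding protein gene, lay the other way, at 182 ± 5.87 against 157 ± 18.3 CPM (n = 5 each, SD; log2 fold change 0.21, adjusted p = 0.203, edgeR's quasi-likelihood test).

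**Figure D4:**
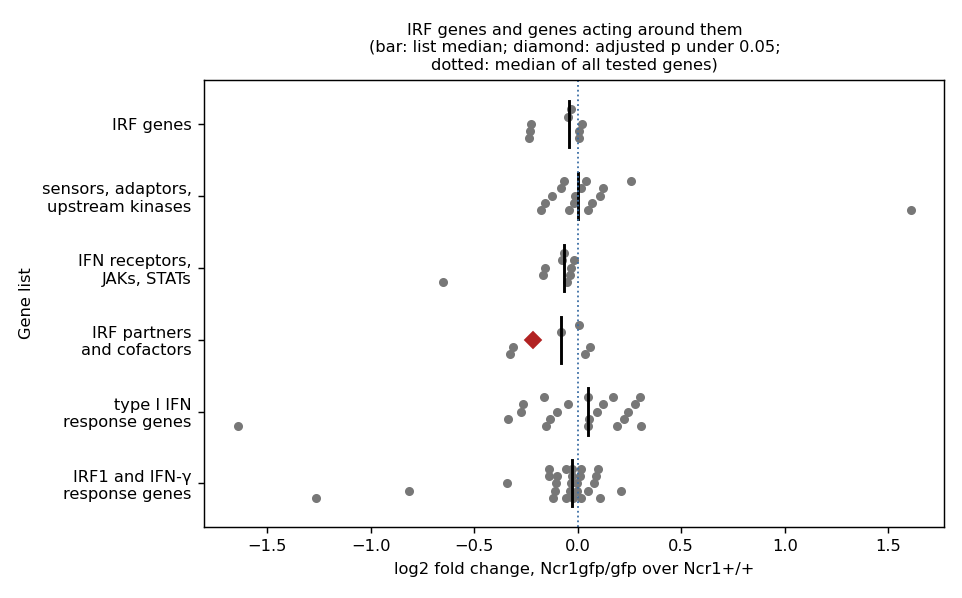
Log2 fold change in Ncr1gfp/gfp over Ncr1+/+ ILC1s of the 8 IRF genes and of the 80 tested genes in 5 lists around them, 1 point per gene, with a bar at each list median and a dotted line at the median of all tested genes. The list medians lie between -0.08 and 0.05, and the red diamond is *Irf2bp2* (-0.22), the gene with an adjusted p-value under 0.05.

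The libraries were also compared by how each IRF gene varied within its genotype. Over 10 libraries, the deviations of log2 CPM from the genotype mean were correlated with those of 8255 genes at 10 CPM or more, and the top 2 genes for each member are given as a description. They were *Cdc37* and *Prkd2* for *Irf1* (Pearson's r 0.933 and 0.927) and *Dtx1* and *Atp2a2* for *Irf2* (0.980 and 0.943). For *Irf3* they were *Rhoc* and *Pstpip1* (0.924 and 0.892), for *Irf7* *Dnm2* and *Slc25a44* (0.965 and 0.937), and for *Irf9* *Nr2c1* and *Cd200r1* (0.914 and 0.911). For *Irf5* they were *Pfn1* and *Lfng* (0.981 and 0.971) and for *Irf8* *Zfp553* and *Ctsw* (0.947 and 0.944). For *Irf4*, whose deviations rest on few counts, they were *Ubxn1* and *Zdhhc3* (0.920 and 0.909). These libraries share their depth and composition across genes, and with so many genes compared the highest values are high by selection.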

How the data were processed

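RNA-seq counts of 5 Ncr1gfp/gfp and 5 Ncr1+/+ liver ILC1 libraries were analysed. Per the labels and methods, a SMART-Seq v4 kit amplified cDNA from 2 ng of RNA, which was sequenced as single reads of 51 cycles. After trimming, the authors mapped the reads with STAR 020201 and obtained counts per gene from HTSeq 0.6.0 with its default settings. The deposited counts are whole numbers without normalization. With these settings HTSeq takes reads to be stranded and drops those mapping to several places. Since the library kit does not mark strand, reads in the direction opposite to a gene would not count towards it. This limit holds for the counts and levels of every gene, in libraries of both genotypes. The methods name mm10, but the gene coordinates listed in the table do not name a build and are printed as listed. Exon lengths, in bases, are those of the table.

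These counts were filtered with filterByExpr and scaled by TMM in edgeR 4.0.16 (R 4.3.3), and the genotypes were compared by its quasi-likelihood test without covariates, with Benjamini-Hochberg adjustment over the 11463 genes that passed. Standard errors and 95% intervals came from the F statistic. Calls used the limits in the study's methods, namely 0.05 for the adjusted p-value and 1.5 or 0.7 for the fold change. CPM are TMM-scaled, and RPKM are CPM per kilobase of exon. For single values, exact permutation tests over libraries were used (two-sided). All 20 pairs of libraries within a genotype were further apart than sampling noise (chi-square per gene 9.18 to 24.0). Limits given in counts cover counting error only, because amplified reads are not independent molecules. The edgeR steps were tested on simulated data.

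The members and gene lists were chosen with earlier results of these data known. Genes named beside the members are those of each list with an adjusted p-value under 0.05, or the 2 with the smallest p-values where fewer than 2 passed, the 2 genes most like each member, and *Ncr1*. *Spi1*, *Ifngr2*, single marker genes and genes named as not passing the filter were chosen after their values were seen. Alternatives were DESeq2 1.42.0, limma-voom (limma 3.58.1), the likelihood ratio test, other scalings, filters and thresholds, a replicate block and leaving out libraries.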

Additional observations from a re-analysis of the deposited data

Results flagged for a closer look

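Single libraries far from the other 4 of their genotype were looked for in the members, the 3 ratios, the marker lists and the library totals. Of 38 groups of libraries, 5 held such a value, where chance gives about 1.9. *Irf7* was at 122 CPM in Ncr1+/+ replicate 1, against 100.6 CPM in the nearest Ncr1+/+ library. The log2 ratio of *Irf8* to *Irf4* was 6.76 in Ncr1gfp/gfp replicate 1, against 6.05 in the nearest, and rests there on 19 counts of *Irf4*. The same Ncr1gfp/gfp replicate 1 had the highest sum of NK cell markers, 184 CPM against 138 CPM in the nearest Ncr1gfp/gfp library. Hepatocyte markers summed to 52.3 CPM in Ncr1gfp/gfp replicate 3, against 4.88 CPM in the nearest, and to 30.1 CPM in Ncr1+/+ replicate 1, against 5.15 CPM in the nearest.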

How the results depend on the processing

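No IRF gene was called under any alternative run. The count of IRF genes with an adjusted p-value under 0.05 rose from 0 to 1, *Irf8*, with DESeq2 (log2 fold change -0.23), limma-voom (-0.26) and the likelihood ratio test (-0.24). Over the fits that left out a library this count was 0 to 1, and the log2 fold change of *Irf8* was -0.27 to -0.21. The signs of *Irf3* and *Irf9* turned with limma-voom (-0.010 and -0.020). With single libraries left out, the log2 fold changes ran from -0.033 to 0.041 for *Irf3*, from -0.049 to 0.070 for *Irf7* and from -0.046 to 0.071 for *Irf9*. The differences of the log2 ratios ran from -0.036 to 0.071 (*Irf1* to *Irf2*), from -0.052 to 0.052 (*Irf7* to *Irf3*) and from -0.20 to 0.14 (*Irf8* to *Irf4*). The cause of these moves was not tested.

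Over all genes, 84 were called, against 128 with DESeq2, 138 with the likelihood ratio test, 131 with no filter, 23 at an absolute log2 fold change above 1 and 155 on the adjusted p-value alone, and 60 to 98 with a library left out. In the 5 pathway lists 0 genes were called, and 1, *Iigp1*, with DESeq2, the likelihood ratio test, no filter or at least 10 counts in every library. On the adjusted p-value alone it was 1, *Irf2bp2*. With a library left out it was 0 to 1. Within a genotype alone, 0 neighbour pairs of the order passed, since 5 libraries allow no sign-flip p-value below 0.0625.

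The replicate numbers are shared by both genotypes, but same-numbered libraries did not deviate together (correlations -0.043 to 0.044, and 1 of 5 Ncr1gfp/gfp libraries correlated best with its own number). Neither the labels nor the methods say what the numbers stand for, and whether same-numbered libraries were prepared together was not tested. With the replicate number as a block, 87 genes and 0 IRF genes were called, and *Irf2bp2* had an adjusted p-value of 0.0768 and *Irf8* of 0.113 in edgeR's quasi-likelihood test. *Irf4* had 19 to 63 counts per library, the fewest of the members, and depth and spread between libraries were not separated.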

Other observations

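*Ifngr2*, the signalling chain of the IFN-γ receptor, was low, whereas its partner chain *Ifngr1* was abundant. It was chosen after its values were seen. Per exon length, *Ifngr1* was at 129.9 to 184 RPKM over the 10 libraries and *Ifngr2* at 0 to 0.716 RPKM. Its counts were 0 to 28 per Ncr1gfp/gfp library and 7 to 20 per Ncr1+/+ library, and the ranges overlapped.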
